A study of Mus musculus with 2 samples.

Results

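Retinoid metabolism and receptor genes were followed across the cell types of the mouse heart, in 1 control library and 1 library from mice given a PD-1 inhibitor. The 9 genes, Adh1, Aldh1a1, Aldh1a2, Rdh10, Stra6, Dhrs3, Rara, Rarb and Rxra, were found by symbol among the 32589 genes of the files, and all 9 were present. They were chosen by their place in the pathway together with measured values of these libraries, among them the UMIs of Adh1 in endothelial cells (ECs) by library, so the values below are a description and nothing is tested on them. The hearts were those of male mice of the C57BL/6 strain, 8 weeks old when dosing began. Control mice received PBS, and treated mice received the antibody against PD-1, a brake on T cells, at 5 mg/kg into the peritoneum on days 1 and 14 of a 28-day cycle. How many hearts went into each library is not stated in the sources used here, and with 1 library per condition no spread between hearts can be measured and no p-value is given.

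After filtering, 9522 control and 7644 PD-1 inhibitor nuclei were kept, with a median of 1012 and 1055 unique molecular identifiers (UMIs, 1 per captured transcript) in each nucleus. Of the barcodes deposited, 48 occurred in both libraries. Levels are UMIs of a gene per 1000000 UMIs of the cell type (CPM) with exact Poisson intervals, and intervals of shares are those of Clopper and Pearson. Ratios are on the log2 scale, PD-1 inhibitor divided by control, after 0.5 UMI was added to both sums. All intervals are at 95% and cover counting error only. Those of levels and ratios take UMIs as independent and leave out clumping of UMIs within nuclei. None covers differences between hearts. Marker genes named 10 cell types, of which ECs (2815 control and 2517 PD-1 inhibitor nuclei), cardiac fibroblasts (CFs, 2474 and 1968), cardiomyocytes (CMs, 1278 and 1088), macrophages and related cells (MPs, 1256 and 883), mural cells (588 and 414) and mesothelial cells (481 and 462) were large enough to compare. Mesothelial nuclei differed in depth, with a median of 1293 UMIs in the control and 1724 in the treated group. In sums over a cell type, fewer transcribing nuclei and less RNA per nucleus cannot be told apart.

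Retinol, or vitamin A, circulates bound to a carrier protein, and STRA6 is the membrane receptor that lets it into cells. Alcohol and retinol dehydrogenases such as ADH1 and RDH10 oxidise retinol to retinal, DHRS3 reduces retinal back, and the retinaldehyde dehydrogenases ALDH1A1 and ALDH1A2 make retinoic acid, the active hormone. Retinoic acid binds retinoic acid receptors (RARA, RARB), which pair with retinoid X receptors (RXRA) on DNA, and CYP26 enzymes degrade it. In the developing heart the epicardium, the mesothelial layer on its surface, is a known source of retinoic acid.

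Retinoic acid receptors recognise pairs of a short core, so the 250 bases upstream of RefSeq start sites were searched on both strands for the core AGGTCA, the variant AGTTCA, the variant GGTTCA and the variant GGGTCA, and for direct repeats of them separated by 1, 2 or 5 bases. Windows were given for 8 of the 9 genes, all but Rdh10. A repeat was found upstream of Rarb alone among these 8 genes, in the stretch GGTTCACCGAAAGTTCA, which begins 53 bases before the start site and has 5 bases between its cores. Of all 32851 windows, 38.6% hold at least 1 core and 0.0883% hold a direct repeat with that spacing. Overlapping cores were counted separately. The upstream sequences of Rarb, the receptor gene with the repeat, of Adh1, the member with the highest ratio in ECs, and of Cyp26b1, a degrading enzyme whose level also differed in ECs, are shown with the cores in capitals. They lie at chr14:16575477-16575726 (minus strand), chr3:138277335-138277584 (plus strand) and chr6:84593811-84594060 (minus strand) of GRCm38.p6. The windows of Rarb and Adh1 lie within the gene spans given below, which come from GENCODE and not from RefSeq. Those of Adh1 and Cyp26b1 hold no core, which says only that these letters are absent from these windows.
Rarb: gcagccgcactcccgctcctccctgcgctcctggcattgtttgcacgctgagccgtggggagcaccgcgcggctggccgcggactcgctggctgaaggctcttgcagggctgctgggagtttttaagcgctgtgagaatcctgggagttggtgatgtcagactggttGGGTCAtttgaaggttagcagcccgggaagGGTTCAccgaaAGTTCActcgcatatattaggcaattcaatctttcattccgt
Adh1: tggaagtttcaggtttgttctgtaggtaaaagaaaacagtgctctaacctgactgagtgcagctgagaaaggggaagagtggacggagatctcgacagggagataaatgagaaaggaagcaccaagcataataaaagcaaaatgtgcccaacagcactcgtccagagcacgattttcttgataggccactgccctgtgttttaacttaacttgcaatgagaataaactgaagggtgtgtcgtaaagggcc
Cyp26b1: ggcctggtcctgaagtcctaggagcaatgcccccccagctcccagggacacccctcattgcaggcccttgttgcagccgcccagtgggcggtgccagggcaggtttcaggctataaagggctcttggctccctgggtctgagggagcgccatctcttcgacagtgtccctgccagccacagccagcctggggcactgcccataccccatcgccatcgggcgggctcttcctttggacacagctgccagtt

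Most of the metabolic genes led in different cell types. Among the 6 large types, Adh1 was highest in ECs, Aldh1a1 in CFs, Aldh1a2 in mesothelial cells, Dhrs3 in MPs and Stra6 in ECs in both libraries, whereas Rdh10, Rara and Rxra were spread widely at low levels. Rarb was highest in CMs in both libraries. Among neighbours in the order of cell types, only Aldh1a1 in CFs against mesothelial cells, Aldh1a2 in mesothelial cells against CFs, and Rarb in adipocytes against ECs had intervals that did not overlap in either library and the same order in both. Over the 6 large cell types, 36 pairs of a gene and a cell type had at least 50 UMIs in both libraries together. Of these, 3 had a log2 ratio of 0.5 or more and 3 had a ratio of -0.5 or less. By cell type, 1 of 8 genes was past the higher threshold in ECs (Adh1), where 8.6% of all 10706 genes with as many UMIs were, and none was past the lower, where 6.59% were. In CFs 1 of 8 was higher (Rxra; all genes, 8.37% higher and 5.94% lower), in CMs 1 of 6 was higher (Rara) and 1 lower (Rarb; all genes, 12.0% and 11.7%), and in MPs 2 of 6 were lower (Aldh1a1 and Rarb; all genes, 9.88% and 9.92%). No member was past either threshold among 1 tested in mural cells (all genes, 11.0% higher and 12.1% lower) or 7 in mesothelial cells (8.38% and 8.86%). These counts are near the shares of all genes, and the median ratio of the tested members was 0.06 in ECs, 0.20 in CFs, 0.11 in CMs, -0.18 in MPs and 0.02 in mesothelial cells, beside medians of 0.01, 0.00, -0.01, -0.03 and 0.00 over all genes.

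**Figure D1:**
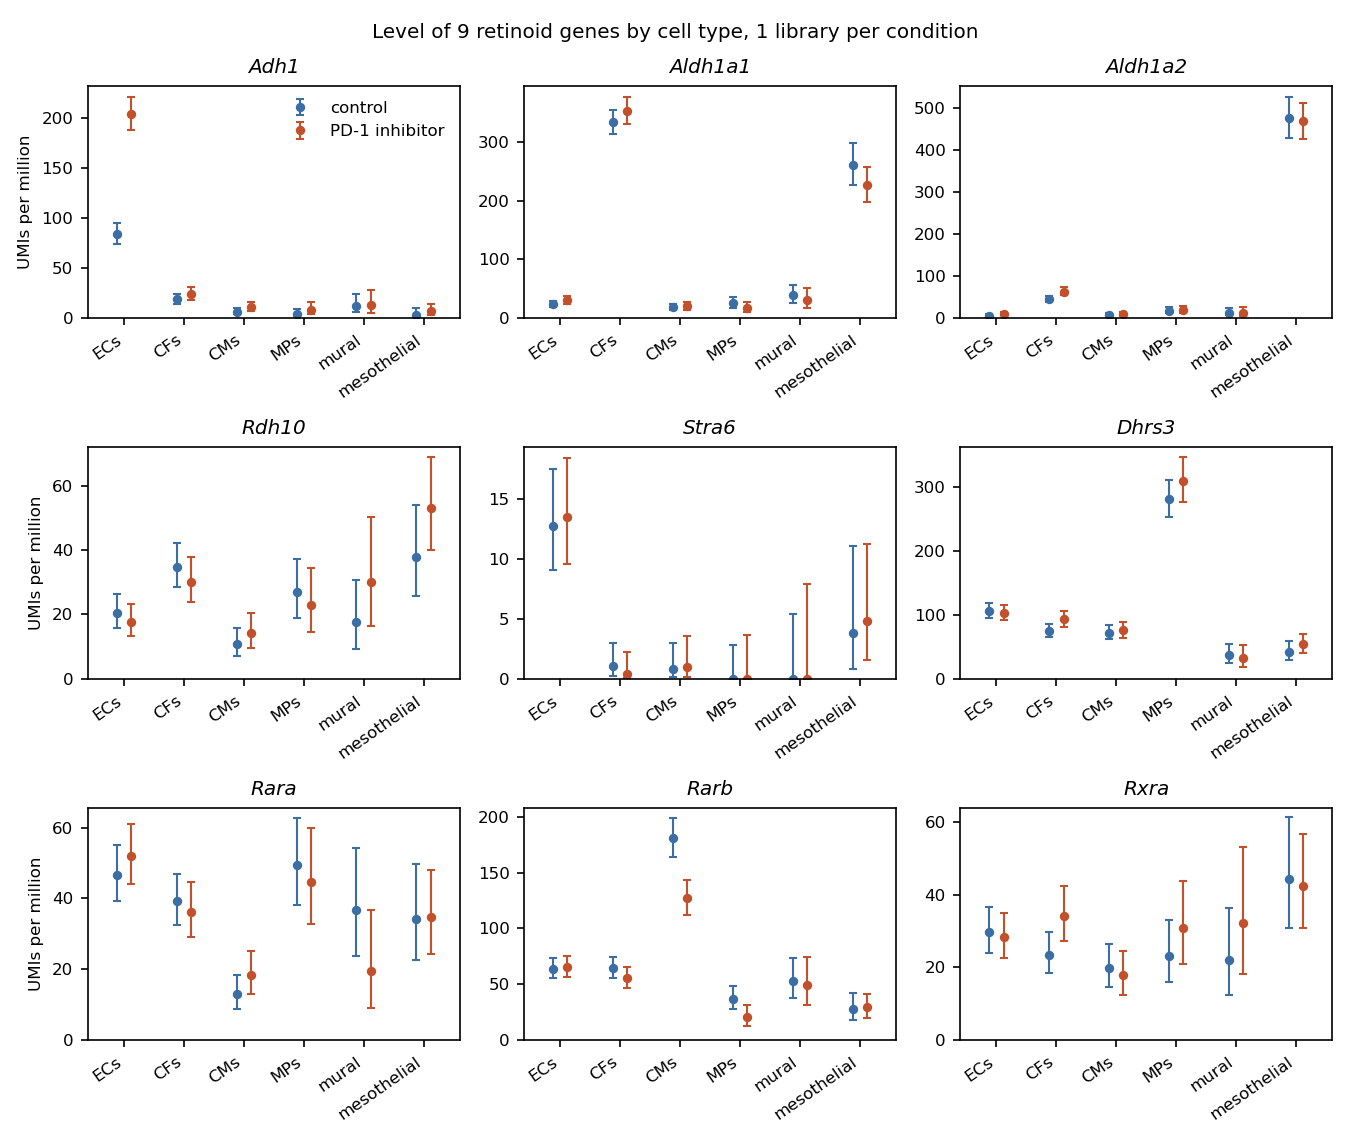
Level of each of the 9 genes in CPM (vertical axis) in 6 cell types (horizontal axis), control in blue and PD-1 inhibitor in orange, with exact 95% Poisson intervals; each panel has its own scale. Adh1 stands at 83.8 and 204 in ECs and at 23.4 or less in the other 5 types, and Aldh1a2 at 475 and 467 in mesothelial cells.

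**Figure D2:**
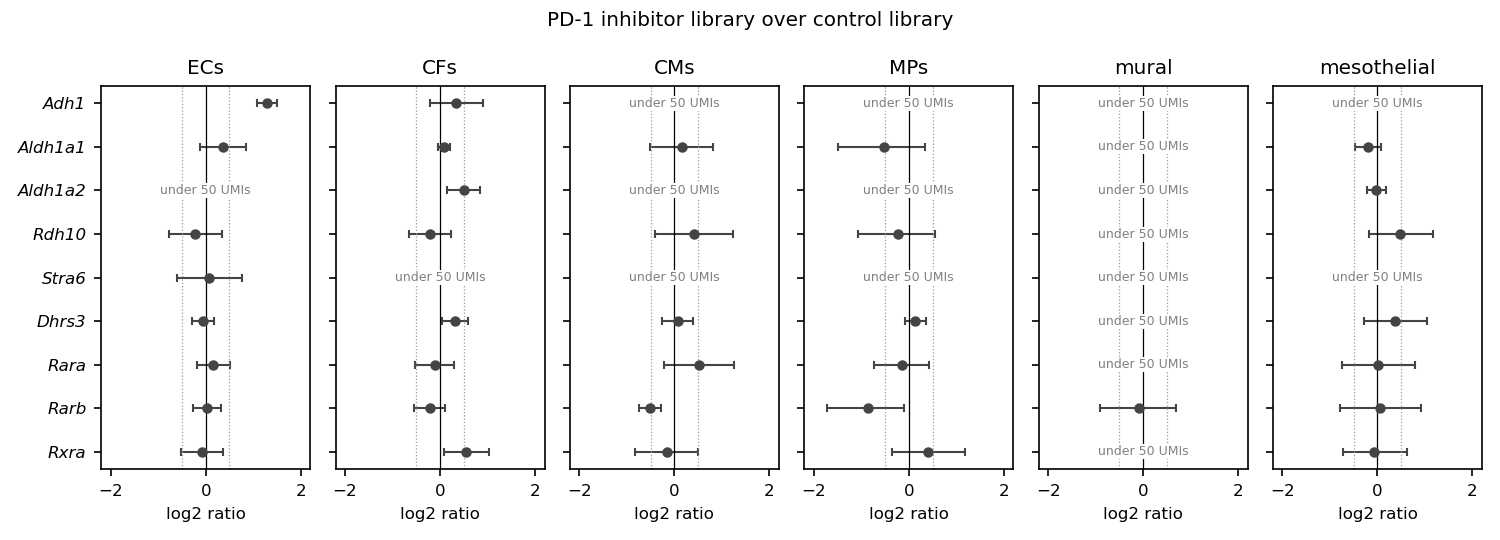
Log2 ratio of PD-1 inhibitor over control (horizontal axis) of each gene in 6 cell types with exact 95% intervals for counting error; dotted lines mark -0.5 and 0.5, and genes with under 50 UMIs are marked. Only Adh1 in ECs has its whole interval above the upper line, at 1.28 (1.07 to 1.50).

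Stra6, the retinol receptor at the cell surface, was found mostly in ECs. Control ECs held 38 of its UMIs and those of the PD-1 inhibitor group 39, which were 82.6% and 83.0% of all its UMIs. The levels were 12.7 (9.01 to 17.5) and 13.4 (9.56 to 18.4) CPM, and the ratio was 0.08 (-0.60 to 0.76), which became 1.11 when nuclei were thinned to 500 UMIs. Mesothelial cells had 3 and 5 UMIs (3.79 and 4.82 CPM), with an interval that overlapped that of ECs in at least 1 library, CFs had 3 and 1, and CMs had 2 and 2. No UMI was seen in MPs, which allows up to 0.239% of control and 0.340% of PD-1 inhibitor nuclei to have a UMI but sets no such limit on nuclei that express the gene, and none was seen in mural cells, T cells, B cells, adipocytes or glial cells. CMs, where the gene should be lacking, had a UMI in 0.156% and 0.184% of nuclei at median depths of 1405 and 1426.5 UMIs, against 1.03% and 0.954% of ECs at 898 and 949. Within ECs, the endothelial cluster led by Wnt9b and Hapln1, genes known from cardiac valves, held 19 and 10 Stra6 UMIs (46.1 and 24.6 CPM). The endocardial clusters, which line the chambers, held 10 and 25 (7.97 and 16.4 CPM). Neither ratio had an interval that left 0 out, at -0.87 (-2.17 to 0.27) and 1.00 (-0.07 to 2.26). Stra6 lies on chromosome 9 at 58063788 to 58153996 and overlaps Ccdc33 on the other strand, which had 5 and 2 UMIs in ECs. Whether strand was used in counting is not given in the sources used here.

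Adh1 encodes a class I alcohol dehydrogenase that oxidises retinol as well as ethanol. In ECs 250 UMIs were counted in the control library, 83.8 (73.7 to 94.9) CPM, and 592 in the PD-1 inhibitor library, 204 (188 to 221) CPM. The level was thus higher with the PD-1 inhibitor, the intervals did not overlap, and the log2 ratio was 1.28 (1.07 to 1.50). This ratio was at percentile 99.8 of the genes tested in ECs and was known when the genes were chosen. A UMI was seen in 5.83% (4.99 to 6.76) of control and 13.3% (12.0 to 14.7) of PD-1 inhibitor EC nuclei, and in 3.27% and 8.10% after every nucleus was thinned to 500 UMIs. In CMs, taken as a type that should lack the gene, the shares were 0.939% and 1.75%, and 0.391% and 0.460% after thinning. Both EC shares thus stood above this background.

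ECs held most of the Adh1 signal, with 70.2% of all its UMIs in the control and 84.5% in the PD-1 inhibitor library. Outside ECs it had 106 and 109 UMIs, 11.6 and 14.8 CPM, with a ratio of 0.34 (-0.06 to 0.74). CFs held 55 and 58 of these (18.4 and 23.4 CPM, 0.34, -0.22 to 0.90). Adipocytes had 21 and 2 UMIs from 154 and 16 nuclei, at 58.2 and 35.7 CPM, the level next below ECs, and the control intervals of the 2 types overlapped. Small counts were seen in CMs (14 and 21 UMIs), MPs (5 and 8), mural cells (8 and 6), mesothelial cells (2 and 7), T cells (0 and 4) and B cells (0 and 2). Over all kept nuclei the level was 29.4 and 68.1 CPM, at a ratio of 1.21 (1.03 to 1.40), while ECs gave 24.6% of all control UMIs and 28.2% of all PD-1 inhibitor UMIs.

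Among ECs, Adh1 was highest in the endocardial clusters. The control count in endocardial nuclei was 194 UMIs, 155 (134 to 178) CPM, and the PD-1 inhibitor count was 497 UMIs, 326 (298 to 355) CPM, at a ratio of 1.07 (0.83 to 1.32). A UMI was seen in 10.8% and 20.5% of endocardial nuclei, and in 6.16% and 12.98% after thinning. Both endocardial clusters had similar ratios. The cluster with Tmem100 and Npr3 among its leading genes had 111 and 238 CPM (1.09, 0.68 to 1.54), and the one with Nrg1 and Plvap had 193 and 398 CPM (1.04, 0.75 to 1.35). The first was named on 3 of 10 endocardial markers (Npr3, Sall1 and Hmcn1) and the second on 9 of 10, so the name is less firm for the first. Capillary nuclei had 33 and 23 UMIs, 35.1 and 34.9 CPM and a ratio of 0.00 (-0.84 to 0.80), an interval that does not overlap that of endocardial nuclei. Over 11 alternatives of the processing the capillary ratio of Adh1 ran from -0.72 to 0.71. The difference between clusters was not tested, since 1 library per condition gives no measure of spread. Lymphatic (3 and 6 UMIs) and arterial (1 and 4 UMIs) ECs had too few counts to compare. Of all genes with at least 50 UMIs in endocardial nuclei, 10.6% were past 0.5 and 7.31% past -0.5, and 2 of 7 members tested were past 0.5 (Adh1 and Rarb). In capillary nuclei no member of 4 tested was past either threshold, where 12.8% and 10.9% of all genes were.

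The higher endocardial level was seen both in how many nuclei had a UMI and in how many UMIs they had. Of 1168 control endocardial nuclei, 81 had 1 Adh1 UMI, 30 had 2 and 15 had 3 or more. Of 1356 PD-1 inhibitor nuclei, 160 had 1, 68 had 2 and 50 had 3 or more. Nuclei with the transcript thus carried 1.54 UMIs on average in the control group and 1.79 in the treated one. A single PD-1 inhibitor nucleus held 24 Adh1 UMIs of its 3969, and without it the endocardial ratio was 1.00 (0.76 to 1.26).

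Endocardial nuclei made up 41.5% of control and 53.9% of PD-1 inhibitor ECs, and once the EC clusters were weighted alike in the libraries the EC ratio of Adh1 was 1.05. The summed level of 13 EC markers in endocardial nuclei was 13147 and 13206 CPM, and that of the 10 endocardial markers was 13010 and 12684 CPM. That of 13 CF markers was 3650 and 4729 CPM there, with 5 of 13 higher in the PD-1 inhibitor library and Dpep1 at 0 in both. The part of these CF transcripts in the Adh1 result was not tested; CFs themselves had 18.4 and 23.4 CPM of Adh1. The gene lies on chromosome 3 at 138260991 to 138290698, spans 29.7 kb and overlaps Gm16559 on the other strand, which had 1 and 3 UMIs in ECs.

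The Wnt9b and Hapln1 cluster had 19 and 62 Adh1 UMIs, 46.1 and 153 CPM, and was higher in the PD-1 inhibitor library at 1.70 (0.97 to 2.55). In this cluster 1 of 2 members tested was past 0.5, where 10.5% of all genes were, and none was past -0.5, where 11.0% were. The cluster was not uniform. At a finer clustering (resolution 2) 183 of its nuclei stayed under the valve-like name and held 204 and 255 Wnt9b UMIs but 1 and 4 Adh1 UMIs. A further 228 control and 148 PD-1 inhibitor nuclei formed an unnamed cluster that held 2 and 9 Wnt9b UMIs and 18 and 58 Adh1 UMIs, or 67.0 and 241 CPM. Most of the Adh1 of the cluster was thus in the nuclei with little Wnt9b, and the 1 and 4 UMIs of the others are too few to compare. This split was looked at after the values were known. In the whole cluster the summed level of 16 MP markers also stood at 602 and 944 CPM and that of 13 CF markers at 4445 and 5900 CPM, and the median depth at 1001.5 and 1414 UMIs. Their part in the result was not tested.

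**Figure D3:**
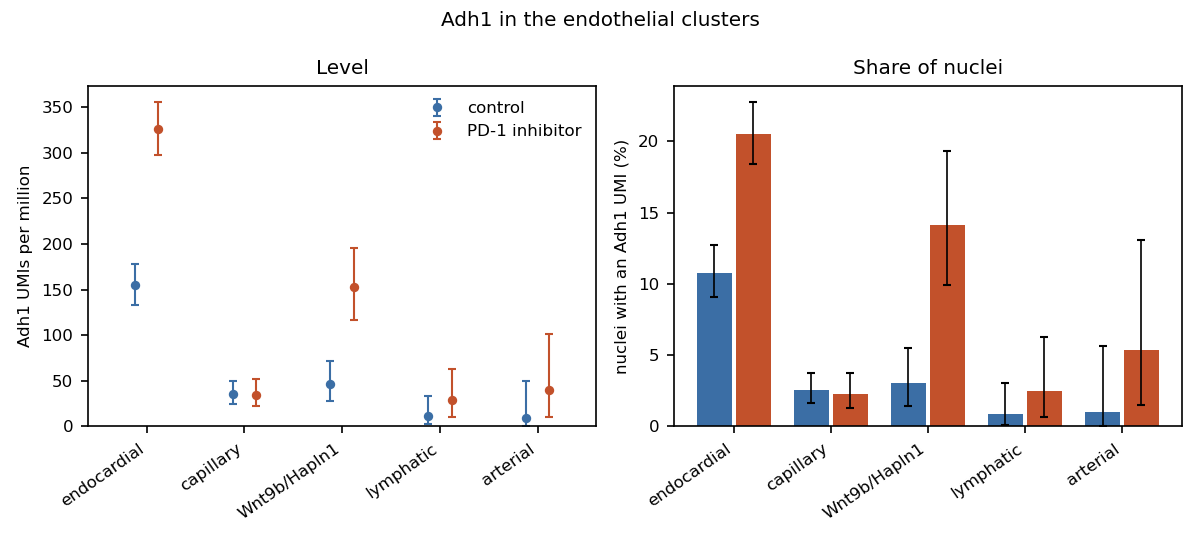
Adh1 level in CPM with exact Poisson intervals (left) and share of nuclei with an Adh1 UMI with exact Clopper-Pearson intervals (right) in 5 endothelial clusters or groups of clusters, control in blue and PD-1 inhibitor in orange. Endocardial levels are 155 and 326 and capillary levels 35.1 and 34.9.

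Rdh10, a membrane-bound retinol dehydrogenase that is essential for retinoic acid synthesis in the embryo, was low in every cell type. Mesothelial cells had 30 and 55 UMIs (37.9 and 53.0 CPM), with a ratio of 0.47 (-0.18 to 1.18). CFs had 104 and 75 UMIs (34.8 and 30.2 CPM), at -0.20 (-0.65 to 0.24). In ECs the counts were 61 and 51, at -0.22 (-0.78 to 0.34), and in CMs 26 and 29, at 0.41 (-0.40 to 1.24), a ratio that was 1.61 after thinning and -0.15 with at most 5% mitochondrial UMIs. No interval of Rdh10 in these types left 0 out, and differences inside these intervals were not detectable at this depth. In MPs 2.55% and 2.27% of nuclei had a UMI at median depths of 902 and 966, against 3.27% and 3.05% in CFs at 1043.5 and 1088.5. MPs had been set as the type that should lack Rdh10. They stood at 26.9 and 22.9 CPM, beside 20.4 and 17.6 CPM in ECs and 10.7 and 14.3 CPM in CMs. Their share is therefore not read as a background, and none is given for this gene.

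Dhrs3, the retinal reductase that returns retinal to retinol and is itself a known target of retinoic acid, was highest in MPs. It had 376 and 312 UMIs there, 281 (254 to 311) and 310 (277 to 346) CPM, and a UMI in 20.9% and 22.1% of nuclei. The ratio was 0.14 (-0.08 to 0.36), an interval that holds 0. MPs had been set as the type that should lack Dhrs3, which these levels go against, so no background share is given for it. The larger MP cluster, led by Ms4a14 and Ms4a7, stood at 304 and 322 CPM, and the cluster led by Cd209a and Flt3, genes of dendritic cells, at 152 and 235 CPM (0.63, -0.13 to 1.39). ECs came next among the large types with 317 and 298 UMIs (106 and 103 CPM, -0.05, -0.28 to 0.18). Within ECs, Dhrs3 was highest in capillary and lymphatic clusters and not in the endocardial ones. Capillary nuclei had 182 and 202 CPM and lymphatic nuclei 170 and 174 CPM, whereas endocardial nuclei had 58.2 and 62.2 CPM. In CFs it had 223 and 231 UMIs, 74.7 and 93.0 CPM, at a ratio of 0.32 (0.04 to 0.59). The largest CF cluster, led by Rgs17 and Fbn2, was at 67.1 and 98.0 CPM (0.55, 0.18 to 0.91), whereas the cluster with Cilp and Pi16 was at 85.8 and 88.8 CPM (0.05, -0.40 to 0.50). Those intervals overlap, so the clusters cannot be said to differ. In CMs the levels were 71.9 and 75.5 CPM, at 0.07 (-0.25 to 0.39).

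Aldh1a1, a cytosolic retinaldehyde dehydrogenase, was the enzyme of CFs. They held 997 and 878 UMIs, which were 70.9% and 68.2% of all Aldh1a1 UMIs, at 334 (314 to 355) and 354 (331 to 378) CPM. A UMI was seen in 23.0% and 23.6% of CF nuclei against 2.66% and 2.85% of CMs. The ratio over all CFs was 0.08 (-0.05 to 0.21). The CF clusters had different ratios, which were not tested against each other. The Rgs17 and Fbn2 cluster was at 412 and 404 CPM (-0.03, -0.19 to 0.13), the Cilp and Pi16 cluster at 176 and 231 CPM (0.39, 0.10 to 0.69), and the small Wif1 and Chad cluster at 351 and 690 CPM (0.97, 0.52 to 1.45) from 58 and 126 UMIs. The last of these had 114 and 88 nuclei with median depths of 1078 and 1714.5 UMIs, so depth moved with the result and its part was not tested. The 13 CF markers summed to 19536 and 19806 CPM in that cluster, beside 39024 and 48103 CPM in all CFs. It was named on 5 of 13 CF markers (Col1a1, Col1a2, Lum, Mmp2 and Pcdh9) and both large CF clusters on 12 of 13. The CF name is therefore less firm for the Wif1 and Chad cluster.

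Mesothelial cells were second among the large types for Aldh1a1, with 206 and 235 UMIs, 260 and 226 CPM and a ratio of -0.20 (-0.48 to 0.08). In MPs the counts were 33 and 17 (24.7 and 16.9 CPM) and the ratio was -0.53 (-1.49 to 0.34). That ratio is past -0.5, but its interval holds 0. The MP levels stood beside 17.3 and 19.2 CPM in CMs, the type that should lack the gene, with overlapping intervals. Glial cells had 10 and 6 UMIs from 30 and 10 nuclei, too few to place. Aldh1a7, the near-identical neighbour of Aldh1a1 in the mouse genome, had 0 to 5 UMIs in each of 5 large types and library, and how reads shared by the pair were assigned is not given in the sources used here, so Aldh1a1 counts may hold reads of both.

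Aldh1a2, the main retinoic acid-producing enzyme of the embryo and of the epicardium, marked mesothelial cells, whose own markers (11 of 11 detected, Msln, Wt1 and Upk3b among them) were clear. It had 376 UMIs in the control and 485 in the PD-1 inhibitor library, 475 (428 to 526) and 467 (427 to 511) CPM. The ratio was -0.02 (-0.22 to 0.17), so a difference beyond counting error was not seen. A UMI was seen in 33.3% and 46.5% of mesothelial nuclei, but after thinning to 500 UMIs in 17.3% and 16.0%, so the gap between unthinned shares is not seen at equal depth. Over all kept nuclei Aldh1a2 was at 47.3 and 68.8 CPM (0.54, 0.38 to 0.70). Mesothelial cells gave 6.54% of all control UMIs and 10.1% of all PD-1 inhibitor UMIs, and outside them the levels were 17.3 and 24.1 CPM (0.48, 0.19 to 0.76).

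CFs were the second Aldh1a2 cell type, far below mesothelial cells. They had 131 and 154 UMIs, 43.9 (36.7 to 52.1) and 62.0 (52.6 to 72.6) CPM. The PD-1 inhibitor library was higher, at 0.50 (0.15 to 0.85), which is 0.498 before rounding and so just under the threshold. Both large CF clusters were higher, at 52.8 and 72.1 CPM (0.45, 0.03 to 0.88) and at 33.9 and 58.5 CPM (0.78, 0.15 to 1.45). Mesothelial markers in CFs summed to 149 and 184 CPM, with 6 of 11 higher in the PD-1 inhibitor library and none at 0 in either. There were 29.4 and 33.7 Aldh1a2 UMIs in CFs for every 100 UMIs of those markers, against 3.70 and 3.48 in mesothelial cells themselves. The same measure was 12.2 and 11.9 in MPs, 0.990 and 1.76 in ECs, and 5.67 and 4.12 in CMs, the type that should lack the gene. A value above that of mesothelial cells therefore does not set CFs apart. The part of mesothelial transcripts in the CF result was not tested. A UMI was seen in 4.45% and 5.34% of CFs, against 1.10% and 1.47% of CMs. MPs had 22 and 18 UMIs, CMs 17 and 16, and ECs 14 and 27. Aldh1a2 overlaps Gm48124 on the other strand, and Aldh1a1 overlaps C730002L08Rik and Gm6684.

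Rara, the widely expressed retinoic acid receptor, had no interval that left 0 out in the types named here. It had 139 and 151 UMIs in ECs (46.6 and 52.1 CPM, 0.16, -0.18 to 0.50), 117 and 90 in CFs (39.2 and 36.2 CPM, -0.11, -0.53 to 0.30) and 66 and 45 in MPs (49.4 and 44.7 CPM, -0.14, -0.72 to 0.42). CMs were lowest of the large types, with 31 and 37 UMIs (12.8 and 18.3 CPM). Their ratio of 0.51 passed the threshold, with an interval (-0.22 to 1.25) that holds 0, and turned to -0.46 when nuclei were thinned. The direction in CMs is therefore not settled by these counts. Within ECs the Wnt9b and Hapln1 cluster had the highest Rara level, 80.2 and 73.9 CPM, with a ratio of -0.11 (-0.88 to 0.64).

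Rarb, a receptor gene known to be induced by retinoic acid and the one with the repeat printed above, had its highest level of the large types in CMs. Control CMs held 438 UMIs, 181 (164 to 199) CPM, and PD-1 inhibitor CMs 257, 127 (112 to 143) CPM. The intervals did not overlap and the ratio was -0.51 (-0.74 to -0.29). The share of CM nuclei with a UMI was 20.3% and 14.8% (thinned, 7.43% and 5.61%). In MPs, taken as background, it was 2.31% and 1.47% (thinned, 1.19% and 0.680%). This background is not firm, since MPs held 36.7 and 19.9 CPM of Rarb beside 27.8 and 28.9 CPM in mesothelial cells. The lower level went with a different mix of CM clusters. The cluster with Mir133a-1hg and Fgf13 among its leading genes held most of the Rarb UMIs, at 245 and 201 CPM (-0.28, -0.53 to -0.04), and made up 58.1% of control but 48.8% of PD-1 inhibitor CMs. The cluster with Xirp2, Ckm and Mb was at 38.7 and 41.2 CPM (0.09, -0.65 to 0.85) and made up 38.7% and 47.4%. With CM clusters weighted alike in the libraries the ratio was -0.29.

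Long genes were also lower in some cell types. In CMs the median ratio over all genes fell from 0.26 in the shortest quintile of gene span to -0.27 in the longest, and Rarb, which spans 388 kb on chromosome 14 (16430839 to 16819156), is in the longest. In ECs the medians went from 0.22 to -0.17, and Adh1, by its GENCODE span of 29.7 kb, sat in the middle quintile, with a median of 0.02. The RefSeq start site of Adh1, at 138277585, lies inside that span, and its quintile from that start was not taken. In mesothelial cells the shortest and longest quintiles were at 0.05 and -0.02, in the Wnt9b and Hapln1 cluster at 0.09 and -0.03, and in the Wif1 and Chad cluster at -0.01 and 0.06. The summed markers of ECs, CFs and mesothelial cells within CMs stood at 632, 1550 and 124 CPM in the control and 866, 2318 and 191 CPM in the PD-1 inhibitor library, beside 74742 and 79907 CPM of CM markers. The part of gene span, cluster mix and these transcripts in the Rarb result was not tested. Top2b, which overlaps Rarb on the other strand, had 114 and 124 CPM in CMs. The part of reads from the other strand in the Rarb counts was not tested.

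**Figure D4:**
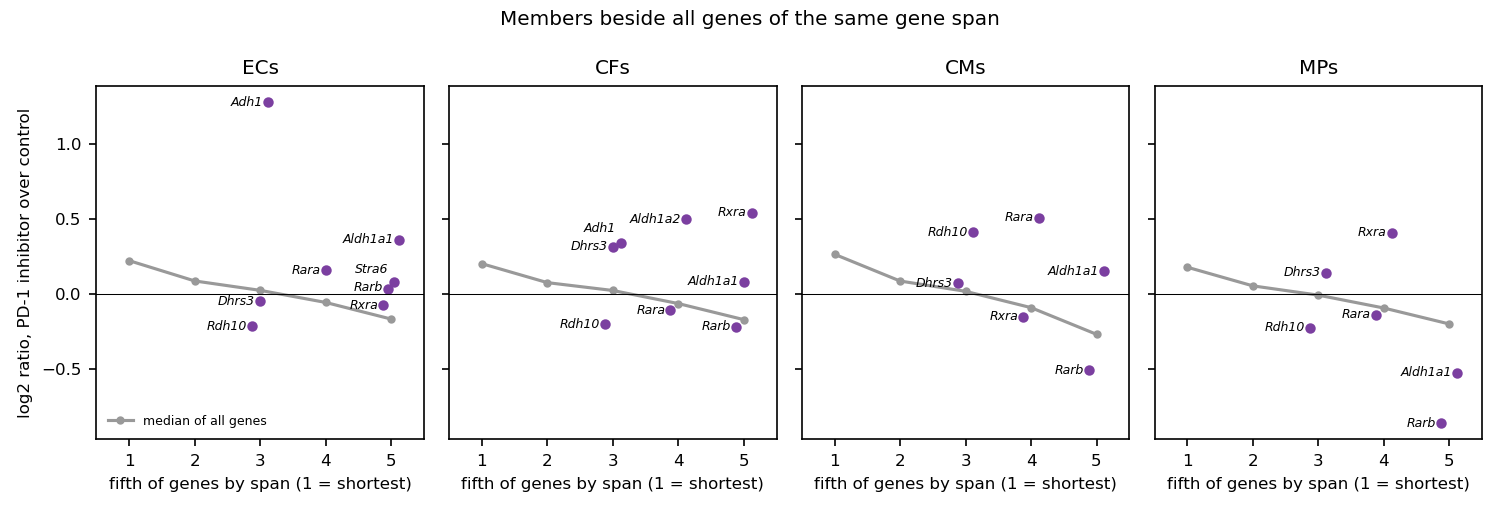
Log2 ratio of PD-1 inhibitor over control (vertical axis) of the members (purple) and the median over all genes (grey line) against quintile of gene span (horizontal axis) in ECs, CFs, CMs and MPs. The grey line falls in each panel, from 0.26 to -0.27 in CMs, where Rarb lies at -0.51, and Adh1 at 1.28 lies above the line in ECs.

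The Rarb ratio was not the same in other cell types. In MPs, the type taken as background, it had 49 and 20 UMIs (36.7 and 19.9 CPM) and a ratio of -0.86 (-1.71 to -0.11). CM markers in MPs stood at 4796 and 4788 CPM. The part of CM transcripts in the MP result was not tested. ECs were level, with 190 and 189 UMIs (63.7 and 65.2 CPM, 0.03, -0.27 to 0.33). Within ECs, lymphatic nuclei were highest at 166 and 155 CPM (-0.10, -0.81 to 0.58), capillary nuclei stood at 83.0 and 88.0 CPM (0.09, -0.43 to 0.59), and endocardial nuclei had 50 and 89 UMIs, 39.8 and 58.3 CPM, at 0.54 (0.03 to 1.08). The endocardial ratio is thus opposite in sign to the CM ratio, with intervals that do not overlap. That difference was not tested over hearts. In CFs the levels were 64.3 and 55.2 CPM (-0.22, -0.55 to 0.10). In the small Wif1 and Chad cluster, where Aldh1a1 was higher, they were 163 and 76.7 CPM (-1.07, -2.14 to -0.11). That ratio came from 27 and 14 UMIs, together under the 50 UMIs set for comparing a gene. Adipocytes had 38 and 10 UMIs from 154 and 16 nuclei, at 105 and 178 CPM.

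Rxra, the partner receptor, was low and even, at 17.8 to 44.2 CPM over the 6 large types and both libraries. CFs had 70 and 85 UMIs, 23.4 (18.3 to 29.6) and 34.2 (27.3 to 42.3) CPM, with a ratio of 0.54 (0.07 to 1.02). The CF ratio thus left 0 out while the intervals of the levels overlapped. ECs had 89 and 82 UMIs (-0.08, -0.53 to 0.37), mesothelial cells 35 and 44 (-0.07, -0.73 to 0.62) and MPs 31 and 31 (0.41, -0.36 to 1.17). Rxra spans 86.5 kb, in the longest quintile for CFs, whose median there was -0.17.

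The genes whose levels followed each member most closely were found over 28 points, 14 populations in each library, by the correlation of log2(CPM + 10) among 11480 genes. The points share libraries and depth, so these are descriptions. Adh1 was most like Ptpru (r = 0.84), Sall1 (0.78) and Bmp6 (0.78), of which Sall1 is one of the endocardial markers used to name clusters. Aldh1a2 was most like Akr1b8 (0.96), Fmod (0.95) and Xpnpep2 (0.93), and Aldh1a1 like Itgb8, Col3a1 and Efs (0.90 each), of which Col3a1 is a CF marker. Dhrs3 was close to Gm7160 (0.81) and Acvr2a (0.79), and Rarb like 2700097O09Rik (0.78), Amacr (0.75) and Apba3 (0.75). For the evenly spread genes the nearest were Anks3 (0.79), Srebf2 and Etf1 (0.75 each) for Rdh10, Zfp444 (0.83), Ap2s1 (0.82) and Ints1 (0.80) for Rara, and Imp3 (0.84), Ube2l6 and Ltbr (0.81 each) for Rxra. Stra6, with 46 and 47 UMIs in all, had too few to compare.

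A list of 67 further genes of the pathway and its partners was counted beside the members. Over the 6 large cell types 190 pairs of a gene and a cell type had at least 50 UMIs, of which 21 were past 0.5 and 22 past -0.5. In ECs 6 of 40 were higher and 5 lower (all genes, 8.6% and 6.59%), with a median of 0.07. Among those higher were Fabp5, a carrier of fatty acids and retinoic acid (274 to 439 CPM, 0.68), Adh5 (34.2 to 52.1 CPM, 0.60), Retsat (7.04 to 10.7 CPM, 0.59), Aldh1a3 (5.70 to 14.1 CPM, 1.29) and Cyp26b1 (22.1 to 42.4 CPM, 0.93). The Retsat ratio came from 21 and 31 UMIs, and its interval (-0.24 to 1.47) holds 0. The lower were Nr4a1 (142 to 41.4 CPM, -1.78), Nr4a2 (45.6 to 16.2 CPM, -1.48), Pparg (143 to 88.3 CPM, -0.70), Lipe (66.4 to 45.2 CPM, -0.55) and Hoxb4 (30.5 to 21.4 CPM, -0.51). The mix of EC clusters differed, as given above. Capillary nuclei held 143 and 87 Lipe UMIs and 338 and 217 Pparg UMIs. Neither gene was past -0.5 there, at -0.20 (-0.61 to 0.19) and -0.13 (-0.38 to 0.12). Pparg was lower in lymphatic nuclei (-1.42, -2.43 to -0.57). Fabp5 was higher in endocardial (0.49, 0.35 to 0.64) and capillary nuclei (0.66, 0.28 to 1.05). The part of cluster mix in these EC ratios was not tested.

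Cyp26b1, an enzyme that breaks down retinoic acid, and Aldh1a3, another retinaldehyde dehydrogenase, had most of their EC counts outside the endocardial clusters. Cyp26b1 had 25 and 64 UMIs in capillary nuclei, 26.6 and 97.1 CPM, with a ratio of 1.85 (1.18 to 2.60). It had 1 and 9 UMIs in endocardial nuclei. In the Wnt9b and Hapln1 cluster its levels were 97.2 and 113 CPM (0.22, -0.42 to 0.87), and at the finer clustering the Wnt9b nuclei held 34 and 29 of these UMIs. Aldh1a3 had 2 and 16 UMIs in capillary and 13 and 21 in Wnt9b and Hapln1 nuclei.

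**Figure D5:**
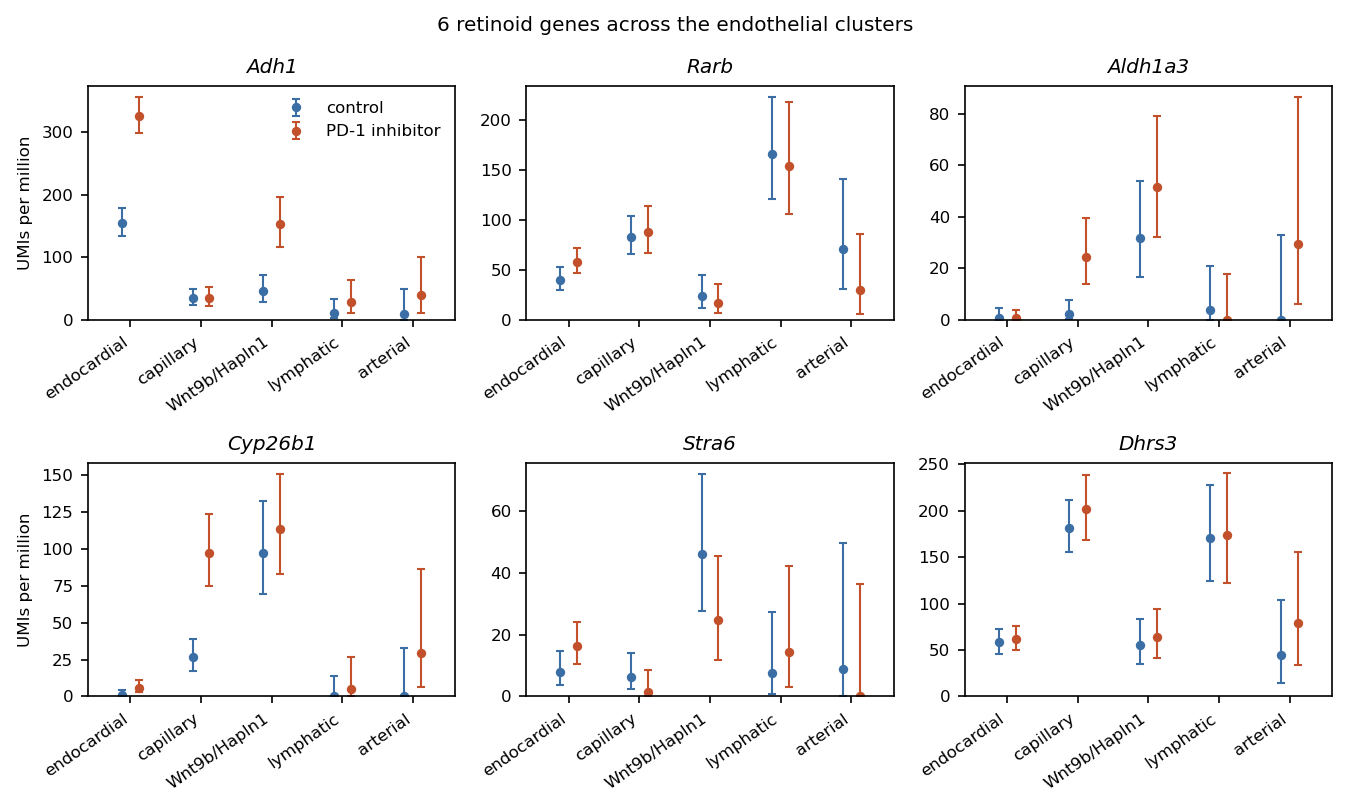
Level in CPM (vertical axis, own scale for each panel) of Adh1, Rarb, Aldh1a3, Cyp26b1, Stra6 and Dhrs3 in 5 endothelial clusters or groups of clusters (horizontal axis), control in blue and PD-1 inhibitor in orange, with exact 95% Poisson intervals. Adh1 is highest in endocardial nuclei and Rarb in lymphatic nuclei, and Cyp26b1 stands at 26.6 and 97.1 in capillary nuclei.

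In the other cell types the further genes were split in direction. In CFs 6 of 37 were higher (Fabp5, Ces1d, Rdh13, Rdh14, Rxrb and Rarres2, at 0.52 to 0.79) and 4 lower (Ep300, Pparg, Nr4a1 and Nr4a2, at -1.78 to -0.59), where 8.37% and 5.94% of all genes were. In CMs 4 of 35 were higher (Fabp5, Retsat, Nr1h3 and Rarres2, at 0.52 to 1.08) and 6 lower (all genes, 12.0% and 11.7%). Those lower were Ppara (347 to 180 CPM, -0.94), Thrb (341 to 202 CPM, -0.75), Crebbp, Nr4a1, Meis1 and Meis2. In MPs 2 of 26 were higher (Rdh5 and Rdh14) and 2 lower (Ppard and Nr4a1; all genes, 9.88% and 9.92%), in mural cells 2 of 23 higher (Fabp5 and Rxrb) and 2 lower (Thrb and Nr4a1; all genes, 11.0% and 12.1%), and in mesothelial cells 1 of 29 higher (Rdh14) and 3 lower (Lipe, Nr4a1 and Meis1; all genes, 8.38% and 8.86%). Some of these intervals hold 0, namely those of Nr1h3 in CMs (-0.12 to 1.18), Rdh5 in MPs (-0.12 to 1.23), Thrb in mural cells (-1.20 to 0.06) and Lipe in mesothelial cells (-1.30 to 0.11). Nr4a1, an immediate early gene whose product can pair with retinoid X receptors, was past -0.5 in all 6 types. Rdh14, a retinol dehydrogenase, was past 0.5 in 3 of the 5 types in which it was tested, and Fabp5 in 4 of 5. These genes were picked from the list after the counts were known. All 6 types come from the same pair of libraries, so the types are not independent. How many of all genes were past a threshold in as many types was not counted.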

How the data were processed

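Nuclei were made into libraries by the authors with the GEXSCOPE single nucleus kit, and the values they deposited are raw UMI counts, 1 for each gene in each nucleus. The submitters' processing notes name GRCm38 (mm10). The aligner, counter and annotation are not given in the sources used here. Each library was mapped to its condition by its treatment label. Totals were 13177525 (control) and 10875248 UMIs over 10197 and 7967 barcodes. The members and gene lists were chosen with earlier results of these data known.

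A floor of 200 genes per nucleus and a ceiling of 20% mitochondrial UMIs were set (83 and 15 nuclei removed by the ceiling), and doublets called by Scrublet (592 and 308) were left out. In scanpy 1.11.5, UMIs were scaled to 10000, logged, and 2000 variable genes were scaled, reduced to 30 components and clustered (15 neighbours, Leiden resolution 1, seed 0). The members and the wider list were left out of the variable genes. Clusters were named by at least 3 markers. A cluster of cycling nuclei (32 and 13) stayed unnamed. Summed counts gave CPM, ratios and exact intervals. The ratios and their intervals were tried on simulated independent Poisson counts, the model that the intervals assume. That trial cannot show how far UMIs clumped within nuclei would widen them. No test over samples was made, since each condition has 1 library. Genes named are all members, wider-list genes past 0.5 or -0.5 in the 6 large types, and the 3 most alike genes of each member; values of some of these genes are not reported here. Gene spans are from GENCODE vM21 (32445 of 32589 identifiers matched), promoter sequences from RefSeq on GRCm38.p6. Alternatives changed the filters, clustering, total, centring, weighting and thresholds.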

Additional observations from a re-analysis of the deposited data

How the results depend on the processing

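With 1 library per condition no library could be left out. No paired analysis was made, since the labels used here give no pairing of control and treated mice. The Adh1 ratio in ECs was 1.05 to 1.31 over 13 alternatives and in endocardial nuclei 0.93 to 1.19 over 11. The lowest EC value, 1.05, came from the same mix of EC clusters and lay just outside the interval of 1.07 to 1.50. In capillary nuclei, with 33 and 23 UMIs, the Adh1 ratio was less steady, at -0.72 to 0.71 over 11 alternatives. In the Wnt9b and Hapln1 cluster the Adh1 ratio was 2.69 after thinning and -0.47 at Leiden resolution 0.5, where the name covered 50 nuclei with 0 Adh1 UMIs, so that value reflects the added 0.5 UMI alone. The name was not given when doublets were kept, with at most 5% mitochondrial UMIs, or without scaling of variable genes (the last chosen after seeing the data). Rara in CMs turned to -0.46 after thinning. Rarb in CMs stayed lower, at -0.56 to -0.29, where the last value, with the same mix of CM clusters, was chosen after seeing the data, and Rarb in MPs at -1.09 to -0.47. Aldh1a2 in CFs was 0.37 to 0.83 and Rxra in CFs 0.43 to 0.66.

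The 3 pairs of a member and a cell type past 0.5 became 6 with the mean over nuclei, 5 with the same mix of depths, 7 with at least 20 UMIs, 1 with at least 200 UMIs, 11 past 0.3 and 1 past 1. The 3 past -0.5 became 1 with ratios centred on their median, 0 after thinning, 0 with the mean over nuclei, 1 with at least 200 UMIs and 0 past -1. In the wider list the 21 past 0.5 became 32 with at least 20 UMIs. Members with under 50 UMIs in a cell type are limited by depth.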
